A study of Canis lupus familiaris with 10 samples.

Results

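The genes described here form the machinery of apoptosis, necroptosis and pyroptosis, the regulated forms of cell death. A list of 34 gene symbols was matched to the gene column of the table of normalized read counts, and 32 of them were found among its 23266 genes. HRK and MLKL were not analysed here. By their textbook role, 9 of the 32 genes favor survival and 21 favor death. The remaining 2, TRADD and RIPK1, serve both outcomes and were counted on neither side.

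The libraries were made with QuantSeq 3′ RNA-Seq, which reads 1 short stretch near the polyadenylated end of a transcript, from FFPE tissue of canine cutaneous histiocytoma (CCH). CCH is a benign skin tumor of dogs that arises from Langerhans cells and usually regresses on its own while lymphocytes enter it. The labels give 5 tumors of group 1 of a histological staging scheme, called early here, and 5 of group 3, called late, whose labels add an enrichment in lymphocytes. The tumors were archived diagnostic specimens from different pet dogs, and the study removed adjacent tissue before RNA extraction. The dogs were 0.5 to 5 years old in early CCH, where 4 of 5 ages are given, and 1.5 to 9 years old in late CCH. In early CCH, 3 dogs were male, 2 of them neutered, 1 was female and 1 had no sex given, and in late CCH 4 were male, 1 of them neutered, and 1 was female. Library numbers from 1 to 5 within each stage serve as names and link no early to a late library.

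In the mitochondrial route to apoptosis, proteins of the BCL2 family decide whether the outer membrane of the mitochondrion is opened. BCL2 and its pro-survival relatives hold back the effectors BAX and BAK1, and the BH3-only proteins relieve this block. Cytochrome c then assembles with APAF1 into the apoptosome, which activates CASP9. The death receptor route starts with FADD and CASP8 and is restrained by CFLAR, and IAP proteins such as XIAP restrain caspases further down. RIPK3 drives necroptosis, and gasdermins perforate the plasma membrane in pyroptosis. Langerhans cells, macrophages, lymphocytes and keratinocytes all carry parts of this machinery, so that in bulk tissue a lower value of a gene can come from fewer cells of a type or from less RNA per cell, which cannot be told apart.

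The libraries held 3132916 to 4439709 reads assigned to genes in early and 2973125 to 3230455 in late CCH. The 32 genes together took 0.214% ± 0.027 of these reads in early and 0.268% ± 0.031 in late CCH (SD, n = 5 each). DV200, the labels' measure of RNA quality as a share of longer fragments, was 68.5% ± 2.46 in early and 73.2% ± 2.09 in late samples (SD, n = 5 each). No extraction batch and no index set of the study held both stages, so that batch, RNA quality and stage cannot be told apart here. All 12 T-cell markers were higher in late CCH, and each passed at a BH-adjusted p of 0.05 (limma). Their summed value ranged from 83.8 to 2576 in early and from 3948 to 6677 in late CCH, and none was at 0 throughout a stage. Cytotoxic lymphocyte markers gave 158 to 2871 in early and 3491 to 8778 in late CCH, with 7 of 7 higher and 6 of them passing. B-cell markers gave 484 to 742 and 637 to 3298, with 6 of 7 tested genes higher and 4 passing. Of these 4, MS4A1, CD79B and CR2 reached a normalized read count of 10 in 1 early library each and in all 5 late ones. They met the filter only through late libraries. TRAT1 among T-cell and KLRD1 among cytotoxic lymphocyte markers reached it in 2 early and 5 late libraries, the fewest early libraries of their lists. The tumor's own lineage was checked with 6 tested Langerhans and dendritic cell markers, which were present in early CCH and all lower in late CCH, 3 of them passing. CD1C, another marker of these cells, fell under the filter and was not tested. It went the other way, with 20 reads over the early and 36 over the late libraries. The sums, which include CD1C, were 731 to 2284 in early and 610 to 928 in late CCH. CD207 and CD1A, further markers of these cells, were not analysed here. Macrophage markers summed to 1208 to 9554 in early and 5429 to 10519 in late CCH, with 7 of 8 tested genes higher and 2 passing. Keratinocyte markers ranged from 936 to 16386 and from 671 to 8154, with 7 of 7 lower and 1 passing. Neutrophil markers ranged from 182 to 5930 and from 53.3 to 5409, with 2 of 3 tested genes lower, none passing, and MPO at 0 in every late library. Cycling cell markers ranged from 851 to 1370 and from 487 to 1203, with 5 of 6 lower and none passing.

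The comparison asked which genes of cell death differed between late and early CCH, and whether those for survival and those for death moved apart. Of the pro-death genes, GSDME, a pore-forming gasdermin, and BID, a BH3-only gene, fell by 1.97 and 1.16 on the log2 scale in late CCH. BIK and BCL2L11, BH3-only genes as well, and RIPK3, the kinase of necroptosis, rose by 3.02, 0.86 and 0.59, although BIK was measured above the filter in late CCH alone and could be tested only by being higher there. Of the pro-survival genes, BCL2A1 and BIRC3 rose by 1.50 and 1.23, and none passed a test as lower. Each of these 7 passed with BH adjustment in limma, and GSDME alone also passed the study's own thresholds in that test. Both rules are described next, with errors following gene by gene. The study applied its thresholds to DESeq2 results with shrunken fold changes. DESeq2 was run here without shrinkage, on reads recovered from the normalized counts and on filtered genes only. With it, BIK and BCL2A1 passed the thresholds as well as GSDME. Of all 12397 genes tested, DESeq2 called 480 higher and 330 lower, against 131 and 138 with limma. BCL2, MCL1, BAX, APAF1 and CASP9 were among the 24 tested genes without a call under either rule. Both sides thus held genes that rose.

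The test was limma on log2(value + 1), fitted on all 12397 genes that reached a normalized read count of 10 in at least 5 libraries. Of the 32 genes, 31 passed this filter and BOK did not. The study's thresholds ask for a p of at most 0.05 after Benjamini-Yekutieli (BY) adjustment together with a log2 fold change (log2FC) that reaches 1 in size. Applied to limma, they called 1 of the 31 genes, lower in late CCH, against 2.17% of all genes tested in both directions and 1.11% in this one. A Benjamini-Hochberg (BH) adjusted p of at most 0.05 without a fold threshold was used as a second rule. It was passed by 7 of the 31 genes (22.6%), against 15.6% of all genes tested. Of these 7, 5 were higher in late CCH, where 7.92% of all genes passed in this direction, and 2 were lower, where 7.69% did. BIK entered the test through its late values alone, and without it 6 of 30 genes (20%) passed, 4 higher and 2 lower. Late values lay entirely above the early values in 3 and entirely below them in 2 of the 31 genes, in all 5, against 5.91%, 6.05% and 12.0% of all genes tested. Without BIK, 2 genes lay entirely above. The log2FC was positive in 14 of the 31 genes (49.8% of all genes tested). All log2FC values are late minus early.

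**Figure D1:**
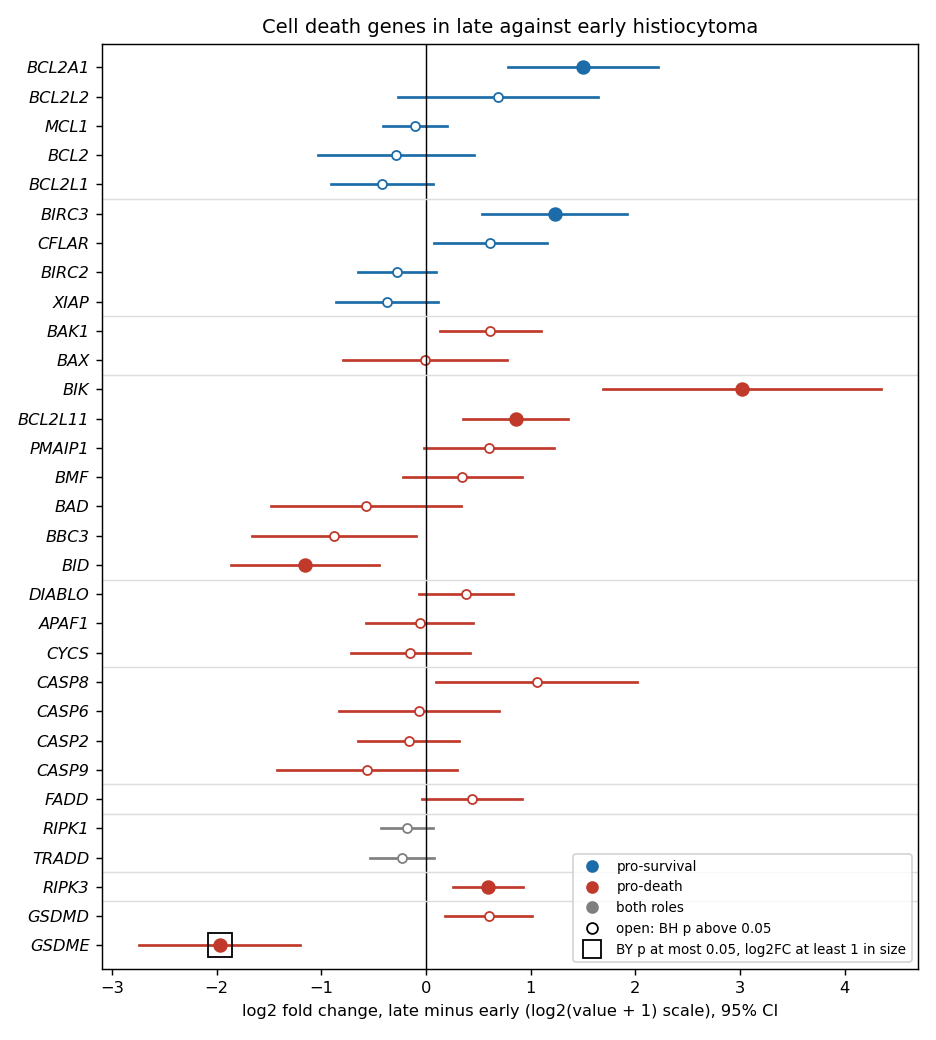
The log2FC of the 31 tested genes (points) is plotted on the x axis with its 95% confidence interval from limma (lines), and genes are grouped by role on the y axis. Filled points have a BH-adjusted p of at most 0.05, the square marks GSDME, called with BY adjustment, at -1.97, and BIK lies farthest to the right at 3.02.

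The anti-apoptotic members of the BCL2 family bind and neutralize their pro-death relatives. BCL2A1, a member induced by NF-κB in blood-derived cells, had normalized read counts of 420, 1412, 586, 412 and 495 in early CCH. In late CCH the counts were 2224, 1517, 1018, 1611 and 2310. Early library 2 reached into the range of the late libraries, and the other early libraries stayed below all of them. Means were 665 ± 424 and 1736 ± 536 (SD, n = 5 each), and BCL2A1 rose with a log2FC of 1.50 ± 0.33 (SE, BH-adjusted p = 0.011, BY-adjusted p = 0.111, limma). Whichever of the 10 libraries was left out, BCL2A1 passed the BH rule. Without early library 2 its log2FC was 1.81 and it was also called with BY adjustment (BY-adjusted p = 0.0159, limma).

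The summed value of the macrophage markers moved with BCL2A1. Their summed value was 9554 in early library 2, and 1692, 3248, 1208 and 4044 in early libraries 1, 3, 4 and 5. Among the late libraries, the sum was 10519 and 9536 in libraries 1 and 5, which also had the highest BCL2A1 counts, and 5429 to 7668 in the others. C1QA, C1QB and C1QC were the largest parts of this sum in every late library. Of the 8 tested macrophage markers, 7 were higher in late CCH and 2 passed the BH rule. MRC1 was lower, with means of 301 in early and 150 in late CCH (log2FC -0.88, BH-adjusted p = 0.0729, limma). The part of macrophages in the difference of BCL2A1 was not tested.

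The other anti-apoptotic BCL2 genes did not pass either rule. BCL2, the founding member, had counts of 147, 106, 252, 421 and 140 in early and 103, 181, 222, 130 and 159 in late CCH. All late values lay inside the range of the early ones except that of late library 1, and the log2FC was -0.28 with a 95% confidence interval of -1.03 to 0.46 (BH-adjusted p = 0.62, limma). MCL1, a short-lived protein needed by many immune cells, had 949, 1052, 789, 954 and 725 in early and 702, 939, 786, 818 and 882 in late CCH. It was among the steadier genes, with a log2FC of -0.11 (95% CI -0.415 to 0.199, BH-adjusted p = 0.649, limma). BCL2L1, which encodes BCL-XL, had a log2FC of -0.42 (95% CI -0.91 to 0.07), and the lowest late library had 132 and the highest 278, against 179 to 321 in early CCH. BCL2L2, which encodes BCL-W, had 8.59 to 42.8 in early and 23.2 to 64.4 in late CCH, a log2FC of 0.69 (95% CI -0.26 to 1.65).

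BIRC3 and BIRC2 encode the cellular IAP proteins, ubiquitin ligases that keep the TNF receptor complex on its pro-survival course. BIRC3, itself a target of NF-κB, had counts of 111, 431, 389, 207 and 194 in early and 635, 556, 687, 531 and 419 in late CCH. Only late library 5 fell below the highest early library. The mean of the 5 libraries rose from 267 ± 137 to 565 ± 103 (SD), with a log2FC of 1.23 ± 0.32 (SE, BH-adjusted p = 0.023, BY-adjusted p = 0.233, limma). BIRC3 no longer passed the BH rule without early library 5 (BH-adjusted p = 0.0577), late library 1 (BH-adjusted p = 0.0511) or late library 4 (BH-adjusted p = 0.0512, limma), with log2FC values of 1.16, 1.18 and 1.25. The summed T-cell markers were 83.8, 834, 2576, 1773 and 289 in the early and 5974, 4655, 3948, 6677 and 5664 in the late libraries. Late library 3, with the highest BIRC3 count, had the lowest T-cell sum of the late libraries and the highest B-cell sum, 3298 against 637 to 1245 in the others. The part of T cells and B cells in the difference was not tested.

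BIRC2 did not follow. It had 173 to 231 in early and 119 to 193 in late CCH, a log2FC of -0.28 (95% CI -0.65 to 0.10, BH-adjusted p = 0.297, limma). Within a library, log2 of BIRC3 minus log2 of BIRC2 was 0.29 ± 0.88 in early and 1.80 ± 0.33 in late CCH (SD, n = 5 each), and its highest early value of 1.21 stayed below the lowest late value of 1.30. This pair was chosen after its values were seen, so no test was made. XIAP, which blocks caspases directly, had 83.8 to 166 in early and 75.7 to 107 in late CCH, a log2FC of -0.37 (95% CI -0.86 to 0.11). CFLAR, the decoy that keeps CASP8 inactive, had 103, 247, 226, 239 and 156 in early and 264, 218, 257, 365 and 340 in late CCH. Its log2FC was 0.62 (95% CI 0.07 to 1.16), which did not pass after adjustment (BH-adjusted p = 0.114, limma).

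**Figure D2:**
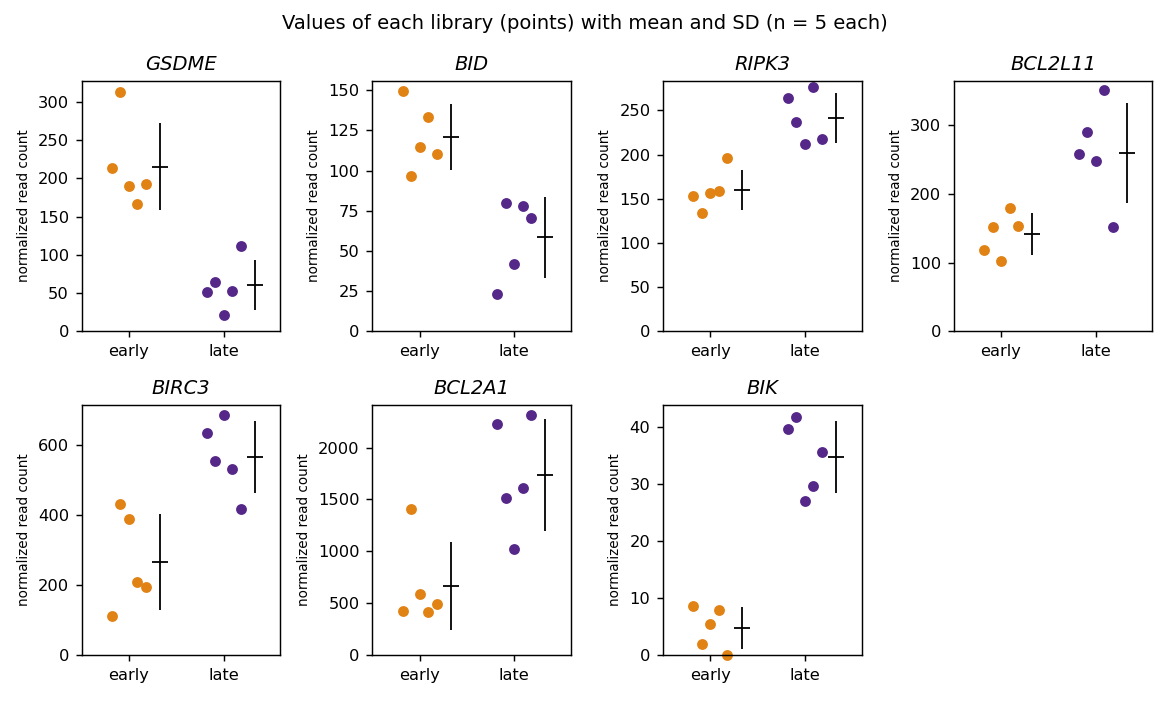
Normalized read counts (y axis, starting at 0) of the 7 genes with a BH-adjusted p of at most 0.05 are plotted for each early and late library (points), with the mean and SD beside them (n = 5 each). The groups do not overlap for GSDME, BID, RIPK3 and BIK, while single libraries overlap for BCL2L11, BIRC3 and BCL2A1.

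BAX and BAK1 are the effectors that form pores in the mitochondrial membrane. BAX had 35.2, 27.9, 28.9, 11.8 and 24.7 in early and 37.8, 26.6, 21.3, 16.4 and 23.1 in late CCH. The groups covered the same range, and the log2FC was -0.01 with an interval of -0.79 to 0.77. The early values rested on 137 reads in all and the late ones on 126. BAK1 had 107, 90.2, 157, 120 and 87.0 in early and 210, 178, 117, 146 and 210 in late CCH. Its log2FC of 0.61 (95% CI 0.13 to 1.09) did not pass after adjustment (BH-adjusted p = 0.080, limma). The BH rule was passed without early library 3 (log2FC 0.74, BH-adjusted p = 0.0462) and without late library 3 (log2FC 0.74, BH-adjusted p = 0.0405, limma). BOK, the third effector, had at most 5.37 in early CCH, was at 0 in late libraries 1, 2 and 3, and had 3.07 and 14.7 in late libraries 4 and 5. A count of 0 allows up to 3 reads, or 2.36 to 3.22 on the normalized scale depending on the library, and no fold change is given for BOK.

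The BH3-only genes, the sensors of the mitochondrial route, went in both directions. BIK, which inserts in the endoplasmic reticulum, had counts of 8.57, 1.86, 5.43, 7.88 and 0 in early and 39.8, 41.9, 27.1, 29.7 and 35.7 in late CCH. Every late library lay above every early one. The mean of the 5 libraries rose from 4.75 ± 3.73 to 34.8 ± 6.34 (SD), with a log2FC of 3.02 ± 0.61 (SE, BH-adjusted p = 0.0077, BY-adjusted p = 0.0774, limma). Only 27 reads lay behind the early and 175 behind the late values. BIK met the filter through the late libraries alone, so that it could pass it only by being higher there. Its log2FC was 2.11 with a pseudocount of 5 and 3.31 with one of 0.5, and without any of the late libraries it fell under the filter.

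BCL2L11, which encodes BIM, a killer of lymphocytes deprived of cytokines, had 118, 152, 102, 179 and 154 in early CCH. In late CCH it had 258, 290, 248, 352 and 152. Late library 5 alone lay inside the early range, and the other late libraries were above it. The mean of the 5 libraries rose from 141 ± 30.5 to 260 ± 72.7 (SD), with a log2FC of 0.86 ± 0.23 (SE, BH-adjusted p = 0.0273, BY-adjusted p = 0.273, limma). It missed the BH rule when early library 1 or 3 or late library 1, 2 or 4 was left out (BH-adjusted p of 0.0629, 0.0606, 0.0532, 0.0648 and 0.0724, limma), with log2FC values between 0.73 and 1.04 over all 10 fits.

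BID couples the death receptor route to mitochondria once CASP8 has cut it. Its counts were 149, 96.8, 115, 133 and 111 in early and 22.9, 79.9, 41.6, 77.7 and 70.3 in late CCH. Every late library lay below every early one, and late library 1 was lowest. The mean of the 5 libraries fell from 121 ± 20.6 to 58.5 ± 25.1 (SD), with a log2FC of -1.16 ± 0.32 (SE, BH-adjusted p = 0.032, BY-adjusted p = 0.318, limma). BID missed the BH rule when early library 1, 3, 4 or 5 or late library 3 was left out (BH-adjusted p of 0.0736, 0.054, 0.0528, 0.0591 and 0.0606, limma), with log2FC values between -1.30 and -0.86 over the 10 fits. MICAL3 and BCL2L13, the genes next to BID in the RefSeq table, had log2FC values of 0.03 and 0.13 (BH-adjusted p of 0.972 and 0.704, limma).

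BBC3, which encodes PUMA, a potent activator of this route, had 153, 76.3, 304, 317 and 131 in early and 93.5, 99.9, 121, 102 and 59.8 in late CCH. Its log2FC of -0.88 (95% CI -1.66 to -0.09) did not pass after adjustment (BH-adjusted p = 0.12, limma). Early library 2 lay below 4 of the late libraries, and the other early libraries lay above them all. Without early library 2 the log2FC was -1.17 and the BH-adjusted p 0.0255 (limma). PMAIP1, which encodes NOXA, the partner of MCL1 and BCL2A1, had 64.4 to 187 in early and 125 to 300.1 in late CCH, a log2FC of 0.60 (95% CI -0.02 to 1.23). BMF, which answers to loss of cell attachment, and BAD, which answers to growth factor signals, had log2FC values of 0.35 (95% CI -0.22 to 0.92) and -0.57 (95% CI -1.48 to 0.34), and neither passed. BMF had 38.1 to 81.6 in early and 47.6 to 86.5 in late CCH, and BAD had 27.6 to 52.0 and 7.75 to 37.8.

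Downstream of mitochondria, CYCS, the gene of cytochrome c, and APAF1 had log2FC values of -0.15 (95% CI -0.71 to 0.42) and -0.06 (95% CI -0.58 to 0.45). APAF1 counts were 79.0 to 116 in early and 55.7 to 128 in late CCH. CYCS spread more among late than among early libraries, from 176 to 489 against 275 to 389. DIABLO, which frees caspases from IAP proteins, had 242 to 441 in early and 305 to 585 in late CCH, a log2FC of 0.38 (95% CI -0.07 to 0.83). CASP9, the apoptosome's caspase, had 44.1 to 172 in early and 30.7 to 103 in late CCH, a log2FC of -0.56 (95% CI -1.42 to 0.29). CASP2, an initiator linked to DNA damage, and CASP6, an executioner, had log2FC values of -0.16 (95% CI -0.65 to 0.32) and -0.06 (95% CI -0.83 to 0.70). CASP2 had 177 to 279 in early and 116 to 259 in late CCH, and CASP6 had 124 to 447 and 195 to 559. None of these genes passed either rule.

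CASP8, the initiator of the death receptor route, had counts of 40.0, 80.0, 77.8, 11.03 and 60.1 in early and 92.5, 97.0, 87.2, 105 and 86.0 in late CCH. All late libraries lay above all early ones, and the late values were close together while the early ones were not. The log2FC of 1.06 ± 0.44 (SE) did not pass (BH-adjusted p = 0.125, limma), with a 95% confidence interval of 0.09 to 2.02. Early library 4, the deepest library, had the lowest early count of CASP8, of CASP6 with 124 and of CASP9 with 44.1. Without it the log2FC of CASP8 was 0.58 (BH-adjusted p = 0.114, limma). FADD, the adaptor that recruits CASP8, had 80.9 to 187 in early and 132 to 194 in late CCH, a log2FC of 0.44 (95% CI -0.04 to 0.92).

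TRADD and RIPK1 are scaffold proteins of the TNF receptor complex that can lead to NF-κB or to death. RIPK1, the gene with the smallest spread of the 31, had 885 to 1046 in early and 796 to 932 in late CCH, a log2FC of -0.18 (95% CI -0.43 to 0.07), with a within-stage SD of 0.10 and 0.09 on the log2 scale. TRADD had 358 to 517 and 341 to 409, a log2FC of -0.23 (95% CI -0.53 to 0.07). RIPK3, the kinase of necroptosis, had 153, 134, 156, 159 and 196 in early and 264, 237, 212, 276 and 217 in late CCH. Every late library lay above every early one. The mean of the 5 libraries rose from 160 ± 22.7 to 241 ± 28.1 (SD), with a log2FC of 0.59 ± 0.15 (SE, BH-adjusted p = 0.022, BY-adjusted p = 0.22, limma). Its log2FC is under the study's fold threshold, and without late library 4 it was 0.54 with a BH-adjusted p of 0.0599 (limma).

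The gasdermins GSDMD and GSDME form the pores of pyroptosis once caspases have cut them, and they went in opposite directions. GSDME had counts of 213, 313, 190, 167 and 192 in early and 50.7, 64.7, 21.3, 52.2 and 111 in late CCH. Every late library lay below every early one, and late library 5 came closest to the early range. The mean of the 5 libraries fell from 215 ± 57.0 to 60.0 ± 32.7 (SD), with a log2FC of -1.97 ± 0.35 (SE, BH-adjusted p = 0.0048, BY-adjusted p = 0.0479, limma). GSDME passed the BH rule whichever library was left out. With BY adjustment it was called only without late library 3 (log2FC -1.65, BY-adjusted p = 0.039) or late library 5 (log2FC -2.23, BY-adjusted p = 0.0314, limma), and without one of the others the BY-adjusted p was at most 0.153. OSBPL3 and MPP6, the genes next to GSDME in the RefSeq table, had log2FC values of 0.69 and 1.91 (BH-adjusted p of 0.0364 and 0.0591, limma).

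Between the stages, markers of Langerhans and dendritic cells fell with GSDME. FLT3, a growth factor receptor of dendritic cells, had 128 to 447 in early and 10.9 to 86.2 in late CCH, CD1A8, a lipid antigen-presenting molecule, had 42.8 to 316 and 0 to 35.8, and FCER1A, a chain of the IgE receptor, had 46.6 to 229.7 and 10.49 to 25.6. Each of these 3 passed the BH rule, with log2FC values of -2.89, -3.80 and -2.47 and every late library below every early one. The other 3 tested markers, CDH1, ITGAX and EPCAM, did not pass. ITGAX, an integrin that macrophages also carry, had means of 656 in early and 517 in late CCH and was the largest part of the summed value in every late library, so that the sum moved less than the 3 markers. Within stages the markers did not follow GSDME in every library. Early library 2, with the highest GSDME count of 313, had the lowest early CD1A8 count of 42.8. Late library 3, with the lowest GSDME count of 21.3, had the highest late counts of FLT3, 86.2, and of CD1A8, 35.8. The part of these cells in the fall of GSDME was not tested.

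**Figure D3:**
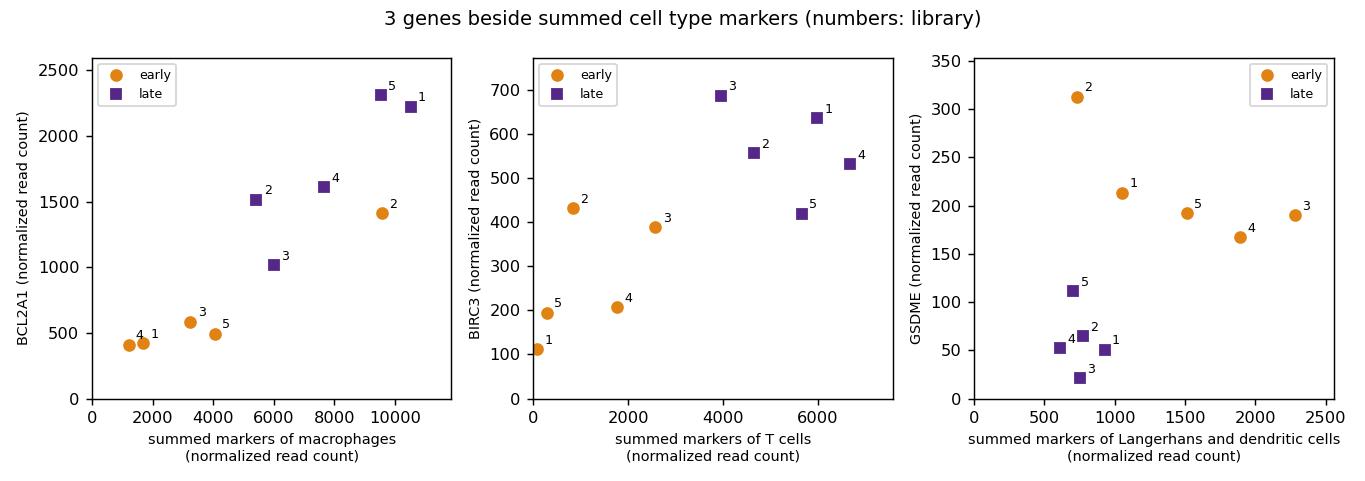
Normalized read counts of BCL2A1, BIRC3 and GSDME (y axes) are plotted against the summed normalized read counts of macrophage, T-cell and Langerhans and dendritic cell markers (x axes) in each early (circles) and late library (squares), with the library number beside each point. Early library 2, with 1412 of BCL2A1, lies among the late libraries in macrophage markers, and the Langerhans and dendritic cell sum, of which ITGAX is the largest part in every late library, overlaps between stages while GSDME does not.

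GSDMD, the gasdermin of inflammasome signaling, had 83.8, 110, 106, 114 and 91.3 in early and 178, 167, 112, 129 and 190 in late CCH. Only late library 3 lay inside the early range. The log2FC was 0.60 (95% CI 0.18 to 1.01), which narrowly missed the second rule (BH-adjusted p = 0.0516, limma). Without late library 3 it was 0.71 with a BH-adjusted p of 0.0282 (limma). Under the 9 alternatives that used all libraries, GSDMD passed the BH rule in 5, with log2FC values between 0.58 and 0.69.

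Set against each other, the sides each held genes that rose. Of the 9 pro-survival genes, 4 had a positive and 5 a negative log2FC, and 2 passed the BH rule, both higher in late CCH. Of the 20 tested pro-death genes, 10 had a positive and 10 a negative log2FC, and 5 passed, 3 higher and 2 lower. Over all genes tested, 15.6% passed the BH rule, 7.92% as higher and 7.69% as lower. The median log2FC was -0.11 for pro-survival and 0.17 for pro-death genes, and -0.004 over all genes tested. The mean log2FC had the opposite order, with 0.29 for pro-survival and 0.15 for pro-death genes, since BCL2A1 and BIRC3 lie far above the other pro-survival genes. The median and the mean thus differ in sign for the difference between the sides. Without BIK, 2 of 19 pro-death genes passed as higher and 2 as lower, and the median and mean log2FC of that side were -0.0093 and -0.0052. With TRADD and RIPK1 counted as pro-death, the median of that side was -0.035.

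**Figure D4:**
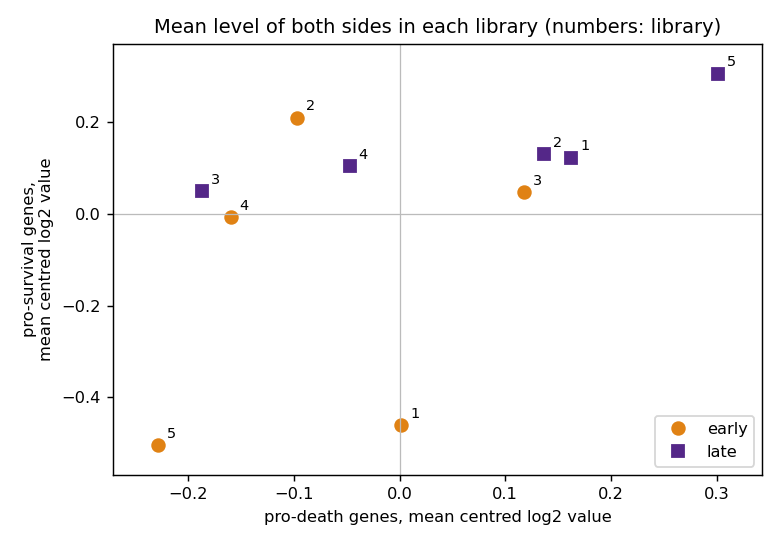
Each point is a library, numbered within its stage, with the mean centred log2 value of the 20 tested pro-death genes on the x axis and of the 9 pro-survival genes on the y axis. The late libraries lie between 0.05 and 0.31 on the y axis, within which early library 2 also falls at 0.21, and early libraries 1 and 5 lie lowest at -0.46 and -0.50.

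Within a library, the mean of the pro-survival genes minus that of the pro-death genes, each gene centred at 0, was -0.07 ± 0.31 in early and 0.07 ± 0.12 in late CCH (SD, n = 5 each). The values were -0.46, 0.31, -0.07, 0.15 and -0.28 in the early and -0.04, -0.01, 0.24, 0.15 and 0.005 in the late libraries. The late values all lay inside the range of the early ones. Pairs of an inhibitor and its target were set beside this. Log2 of BCL2 minus log2 of BAX was 2.90 ± 1.29 in early and 2.62 ± 0.71 in late CCH, that of MCL1 minus BAK1 was 3.00 ± 0.44 and 2.28 ± 0.39, and that of CFLAR minus CASP8 was 2.03 ± 1.28 and 1.59 ± 0.31 (SD, n = 5 each). That of XIAP minus DIABLO was -1.43 ± 0.57 and -2.19 ± 0.44. Early and late libraries overlapped in each of these pairs. Log2 of BCL2A1 minus log2 of BID, genes that had each passed the BH rule in opposite directions, was 2.29 ± 0.94 in early and 4.94 ± 0.94 in late CCH, with every late library above every early one. The pairs were chosen with the values known and were not tested.

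The spread among libraries of a stage was also set beside that of all genes. On the log2 scale, the median SD within early CCH was 0.54 for pro-survival and 0.35 for pro-death genes, and within late CCH it was 0.31 and 0.44. Over all genes tested it was 0.42 in early and 0.41 in late CCH. Early libraries 1 and 5 had the lowest summed T-cell markers and also the lowest counts of BIRC3 and CFLAR among early libraries, and the part of T cells in this was not tested.

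**Figure D5:**
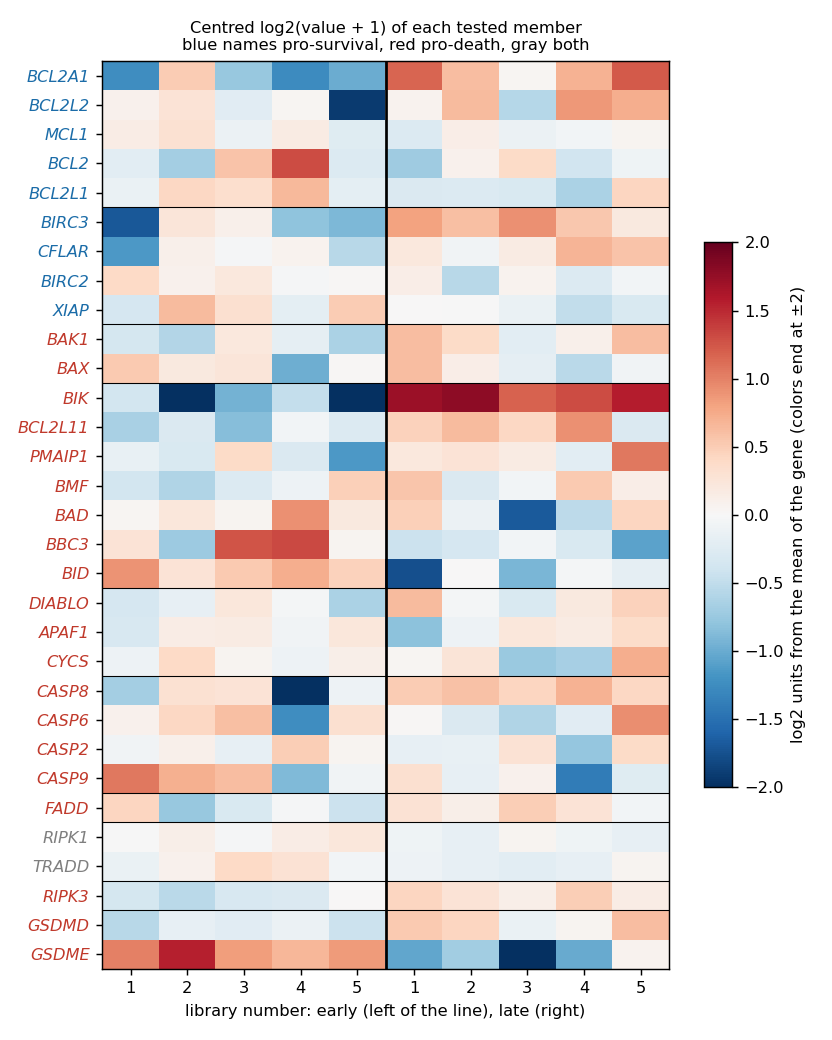
Each row is 1 of the 31 tested genes grouped by role and each column a library, early left and late right of the line, and color gives the distance of log2(value + 1) from the gene's mean, red above and blue below, with colors ending at 2. BIK, BCL2A1 and BIRC3 are red in most late libraries, GSDME is red in every early library, BBC3 is red mainly in early libraries 3 and 4, and CASP8 is darkest blue in early library 4.

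The pathway around these genes was read from a further list of 66 symbols, of which 59 were found and 50 tested. With BY adjustment 1 of the 50 was called, lower in late CCH, against 2.17% of all genes tested, and 10 (20%) passed the BH rule, 9 higher and 1 lower, against 15.6%. The BY call was BCL2L15, a little studied relative of BCL2. It had counts of 1143, 898, 762, 1311 and 857 in early and 81.5, 171, 200.5, 48.1 and 306 in late CCH. Every late library lay below every early one, and the log2FC was -2.86 ± 0.41 (SE, BY-adjusted p = 0.0181, limma). It was not called with BY adjustment without early library 1 or 5 or late library 1 or 2, where the adjusted p reached up to 0.0616 (limma), and it passed the BH rule in all 10 fits.

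CASP1, the inflammasome caspase, was not analysed here. Of 7 tested death receptors and their ligands, 4 (57.1%) passed the BH rule, all higher in late CCH, against 7.92% of all genes tested in this direction. This class had the largest share passing on the further list, where the other classes had 0 to 25%. FASLG, the ligand with which cytotoxic lymphocytes kill, had 0, 26.1, 57.0, 7.09 and 1.07 in early and 45.7, 167, 63.0, 95.1 and 71.3 in late CCH, a log2FC of 3.40 ± 0.95 (SE, BH-adjusted p = 0.0304, limma). FASLG reached a count of 10 in 2 early but in all 5 late libraries, so that it met the filter only through late libraries. Its early values rested on 101 reads in all. FASLG missed the BH rule, with an adjusted p of up to 0.073, without early library 1 or 5 or late library 2, 4 or 5 (limma). The ligands TNFSF10 and TNF and the receptor TNFRSF25, named here after their values were seen, had log2FC values of 0.99, 1.19 and 2.44. TNFRSF25 reached a count of 10 in 3 early and 5 late libraries and also met the filter only through late ones. TNFSF10 missed the BH rule without early library 2 or late library 1, 2, 3 or 4, TNFRSF25 passed it only without early library 3 or 4, and TNF only without early library 4 or late library 2, when 1 library was left out, with adjusted p values of up to 0.0893, 0.0999 and 0.109 (limma). Another receptor, FAS, had a log2FC of 0.44 (95% CI -0.03 to 0.91, BH-adjusted p = 0.189, limma). Between the stages, FASLG, TNFSF10, TNF and TNFRSF25 rose with the T-cell and cytotoxic lymphocyte markers given above. Within stages this held only in part. Early library 3 had the highest early FASLG count and the highest early cytotoxic lymphocyte sum, 2871. Late library 1 had the lowest late FASLG count and the highest late sum, 8778. The part of these cells was not tested.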

How the data were processed

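QuantSeq 3′ libraries of 10 FFPE samples of CCH were compared, 5 early and 5 late. According to the study's methods, reads were trimmed with Cutadapt, aligned with STAR to CanFam3.1 and counted with featureCounts, with leftover reads counted again on genes extended downstream and multi-mapped reads shared evenly, and the versions are not given in the sources used here. The deposited values are a normalized signal, read counts divided by 1 size factor per library by the authors. Within a tolerance of 0.001 reads, 100% of the values above 0 were whole multiples of the value of 1 read, and dividing by it gave 2973125 to 4439709 reads per library. Of 21 columns of values, 11 match no sample and were not used. A column name shows the stage but not the sample.

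Genes reaching a normalized read count of 10 in 5 or more libraries went into limma 3.58.1 (R 4.3.3, trend, log2(value + 1), no covariates, late against early), with BY and BH adjustment over all genes tested, and confidence intervals are 95%. edgeR 4.0.16 and DESeq2 1.42.0 were run on the recovered reads. The fits were tested on simulated data. The genes, their roles, the marker lists (T cells, B cells, cytotoxic lymphocytes, Langerhans and dendritic cells, macrophages, neutrophils, keratinocytes, cycling cells) and the further pathway list were chosen with earlier results of these data known. Values of each library are given for genes past either rule, the 3 highest and 3 lowest log2FC, and BCL2, MCL1, BAX, BAK1, CASP8 and GSDMD. Of the further pathway list, genes called with BY adjustment and CASP1, FAS and FASLG are named, and some genes of that list are not reported here. Neighboring genes come from the RefSeq table of UU_Cfam_GSD_1.0 and are given for BID and GSDME only. Those of the other genes, some of which overlap a neighbor, are not reported here. Other pseudocounts, filters, scalings, tests and the omission of each library were tried. Each dog gave 1 sample. Limits on counts of 0 cover counting error only.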

Additional observations from a re-analysis of the deposited data

Results flagged for a closer look

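BCL2A1 stood out through early library 2. Its normalized read count there was 1412, against 586 in the next early library, so that 0.826 of the whole early range lay between these libraries, over the 95% critical value of 0.71 for Dixon's ratio of gap to range. This ratio was taken in 34 sets of 5 libraries, made up of 14 genes, the mean of each side and their difference in each stage. Only BCL2A1 in early CCH passed it, and chance alone gives about 1.7 such cases.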

How the results depend on the processing

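No paired analysis was possible because early and late tumors came from different dogs and no column name holds a replicate number. The 7 genes past the BH rule kept their direction under every alternative in which they were tested, and passed it in each of those that used all libraries. BIK was not tested with a mean of at least 50 or without any 1 of the late libraries. The call of GSDME was lost, leaving 0 genes called lower, with a pseudocount of 0.5, without a filter, with column total scaling and with the edgeR test. Genes called higher numbered 1 with a pseudocount of 5 (BIK), 1 with array weights (BCL2A1) and 2 with DESeq2 (BIK and BCL2A1). With BH adjustment and the fold threshold, 3 were higher and 2 lower, with 4 genes higher on the further pathway list. Among all genes, the numbers called higher and lower were 131 and 138, against 81 higher with edgeR, 480 and 330 with DESeq2, 217 higher with array weights and 685 and 436 with BH adjustment. Column total scaling moved the share called higher from 48.7% to 64%. BH adjustment is less strict than BY by construction, and the other causes were not tested.

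The median log2FC of pro-death genes was -0.0093 both without a filter and without BIK (an alternative chosen after seeing the data), 0.35 with a mean of at least 50, 0.35 for the BCL2 family alone and -0.035 with TRADD and RIPK1 included. The pro-survival median minus the pro-death median was -0.28, and became -0.54 with a mean of at least 50 and -0.073 with TRADD and RIPK1 included. When 1 library was left out, this difference ranged from -0.35 to -0.14, the pro-survival median from -0.18 to 0.01 and the pro-death median from -7.0e-05 to 0.21. Genes of the list called higher then numbered 0 to 1 and lower 0 to 1, past the BH rule 1 to 6 higher and 1 to 3 lower, on the further list 0 higher and 0 to 1 lower, and among all genes 18 to 144 higher and 29 to 153 lower. Depth limits BIK, with 27 reads over the early libraries, and BOK.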
